A study of Danio rerio with 15 samples.

Results

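The genes of cholesterol synthesis and uptake are described here in whole zebrafish larvae (Danio rerio) exposed to a pair of chlorinated compounds. The set was given by name as 32 gene symbols, ordered along the pathway from hmgcs1 to dhcr7 and then by uptake, control and transport. Each of 30 symbols matched 1 gene among the 36351 genes of both deposited tables. The symbols mvd and sqleb matched no row, and the RefSeq gene table (GRCz12tu) gives mvd as an older name of mvda, which was measured. All 30 genes were tested in both tables, with a mean normalised read count between 65.2 and 1803 for TCPMOH and between 56.6 and 1940 for TCPM.

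The study had 3 groups of AB wild-type larvae with 5 samples each, and each sample pooled 8 to 10 larvae. The first group was given 50 nM TCPMOH, tris(4-chlorophenyl)methanol, in the water, the second 50 nM TCPM, tris(4-chlorophenyl)methane, and the controls 0.01% DMSO by volume, which the labels name as the vehicle. Exposure ran from 24 hours after fertilization until collection at 100 hours, and the larvae came from 20 breeding pairs in 3 experimental replicates. TCPMOH carries a hydroxyl group on the central carbon where TCPM carries a hydrogen. The deposited tables hold 1 mean, 1 fold change and its standard error per gene and no value per library, so results are given as group means with intervals. A normalised read count is a gene's reads divided by a factor for the depth of its library. The deposited log2 fold changes come from DESeq2 and were shrunken toward 0, so the fold between group means before shrinkage is larger; SE is the standard error, and the adjusted p is corrected over all genes tested, with 0.05 as the threshold. The tables give DMSO over compound, and the signs are turned here so that a positive value is higher with the compound. The values of the tables showed that 4 libraries of each compound were set against the same 4 DMSO libraries, with 18.1 to 25.9 M assigned reads per library. The 2 comparisons with DMSO therefore share their controls. All 30 marker genes of 8 tissues, among them liver, intestine, neurons, muscle and blood, were detected, as in whole larvae.

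Cholesterol is built from acetyl-CoA. Hmgcs1 and the rate-limiting Hmg-CoA reductase lead to mevalonate, a chain of kinases, a decarboxylase and prenyl transferases leads to squalene, and the sterol ring is then closed by lanosterol synthase and trimmed by a series of enzymes that includes Dhcr7. When the sterol content of the endoplasmic reticulum membrane is low, the escort protein Scap carries the SREBP factors to the Golgi, where they are cut and released to switch on most of these enzymes and the LDL receptor. Insig1 holds Scap and SREBP back when sterols are plentiful. Larvae also take cholesterol from yolk lipoproteins, and the Npc proteins move it out of lysosomes.

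The synthesis genes that rose with TCPMOH were msmo1, ebp and dhcr7, which all act on the sterol ring after lanosterol. With TCPM the sterol oxidase gene msmo1, the LDL receptor gene ldlra and the SREBP gene srebf1 rose. No member fell with either compound at an adjusted p under 0.05. The 3 of 30 that rose with TCPMOH stand beside 1.54% of 21491 genes that rose over the whole table, where 1.0% fell and 2.55% passed in either direction. The 3 of 30 that rose with TCPM stand beside 1.27% of 22223 genes that rose, where 0.616% fell and 1.89% passed in either direction. These shares include genes with means down to 18.4 for TCPMOH and 13.8 for TCPM, below every member. No share was counted over genes read as deeply as the members.

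Most members lay above DMSO by a little. With TCPMOH 21 of 30 had a fold change above 0, against 49.1% of all genes tested, and with TCPM 24 of 30, against 50.1%. The median log2 fold change of the members was 0.10 with TCPMOH, beside -0.0024 over all genes, and 0.07 with TCPM, beside 0.00028 over all genes. At an unadjusted p under 0.05, 9 members were higher and 1 was lower with TCPMOH, where 5.27% and 4.41% of all genes were, and 7 were higher and 0 lower with TCPM, where 5.0% and 3.62% were. In both comparisons 19 members were above DMSO, 4 were below it in both, and 7 differed in sign. The same share was not counted over all genes. The comparisons share their DMSO libraries, which by itself makes signs agree, so these counts do not set the members apart. The cumulative plot of fold changes shows the members shifted to the right of all genes. The members, and the further gene lists below, were chosen with earlier results of these data known. Their shares and medians beside all genes are therefore a description and not a test.

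The 4 intestine markers fabp2, apoa4b.1, vil1 and slc15a1b summed to 40997 normalised reads with TCPMOH, 40940 with TCPM and 34721 with DMSO, none being at 0, and fabp2 rose with both compounds and vil1 with TCPM. The 4 liver markers summed to 74616, 76043 and 79587 with none called. The 4 yolk syncytial layer and lipoprotein markers summed to 138652, 145269 and 133328 in the same order of groups, with none called. The sums of the neuron, glia, muscle and lens markers were 0.424% to 8.22% above DMSO with TCPMOH and 7.05% to 9.74% with TCPM. None of these markers was called. The lens marker crygm2a, at a mean of 3.06 in the TCPMOH table and 2.87 in the TCPM table, had no adjusted p and could not be called. Most of the lens sum was mipb. The lens marker cryba1a was at 0.30 with TCPMOH (authors' deposited table, adjusted p = 0.254) and 0.12 with TCPM (adjusted p = 0.875). The 3 blood markers summed to 2718 with TCPMOH, 3591 with TCPM and 2568 with DMSO, the TCPM sum being 39.8% above DMSO. Most of the sum was hbbe1.1, at 2950 with TCPM and 2063 with DMSO, which did not pass (authors' deposited table, adjusted p = 0.252). The weakly read hbae1.1 rose with TCPM (authors' deposited table, log2 fold change 0.37, adjusted p = 0.0400). The SE of both genes was near the largest of the TCPM table, where group means from undoing the shrinkage are least certain. The part of the intestine and blood transcripts in the values of msmo1 and the other genes described here was not tested, and in whole larvae more cells of a type and more RNA per cell cannot be told apart.

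**Figure D1:**
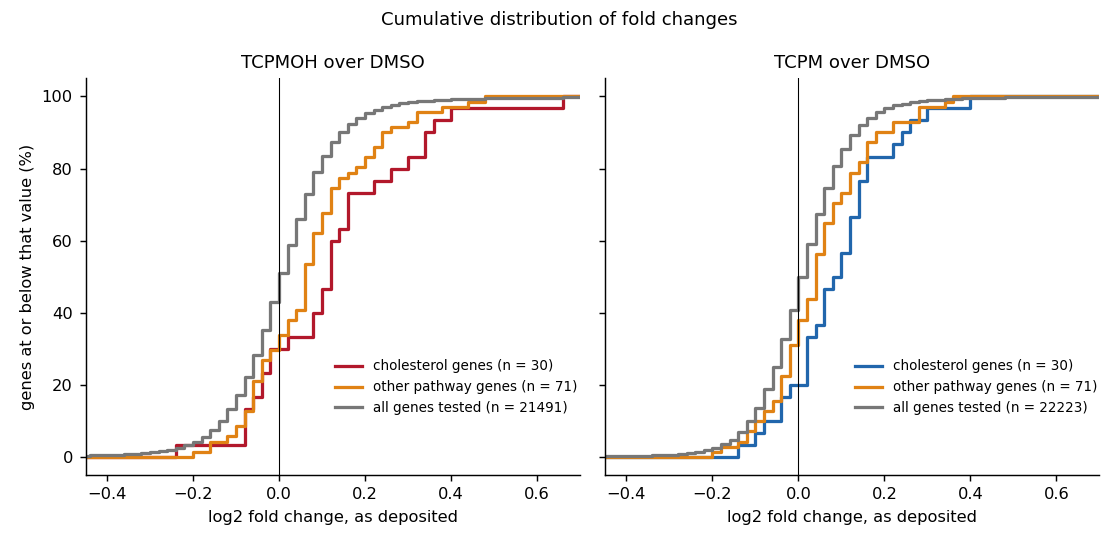
Cumulative share of genes (vertical axis, percent) at or below each deposited log2 fold change (horizontal axis), for TCPMOH over DMSO (left) and TCPM over DMSO (right). Lines stand for the 30 cholesterol genes, 71 other genes of sterol metabolism and all genes tested; the medians of the 30 are 0.10 and 0.07, and those of all genes are near 0.

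The leading gene was msmo1 (Entrez gene 406662), which encodes the methylsterol monooxygenase that begins the removal of a pair of methyl groups from the sterol ring. Its mean normalised read count was 457 in TCPMOH larvae, 387 in TCPM larvae and 265 in DMSO larvae. Both compound groups were above DMSO, TCPMOH by 1.73-fold (95% interval 1.47 to 2.03) and TCPM by 1.46-fold (1.21 to 1.77) before shrinkage. The authors' deposited table gives a log2 fold change of 0.64 ± 0.0967 (SE) for TCPMOH (adjusted p = 7.96e-09). Their deposited table for TCPM gives 0.39 ± 0.0981 (SE) (adjusted p = 0.00668). By p-value msmo1 was gene 89 of the 547 called with TCPMOH and gene 239 of the 419 called with TCPM. Both calls rest on the same DMSO libraries and so are not independent.

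The enzyme gene dhcr7 (Entrez gene 378446) encodes the reductase that turns 7-dehydrocholesterol into cholesterol. Its mean normalised read count was 677 with TCPMOH, 590 with TCPM and 522 with DMSO. The TCPMOH mean was 1.297-fold that of DMSO (95% interval 1.15 to 1.46), and the deposited table gives a log2 fold change of 0.33 ± 0.0783 (SE) (adjusted p = 0.00168). With TCPM the ratio was 1.13 (1.00 to 1.28) and the authors' deposited table gives 0.15 (adjusted p = 0.571), which did not pass. The sterol isomerase gene ebp (Entrez gene 436600), whose product shifts a double bond in the ring, was measured at 115 with TCPMOH, 106 with TCPM and 79.0 with DMSO. It was 1.45-fold higher with TCPMOH (1.17 to 1.79; authors' deposited table, log2 fold change 0.38, SE 0.112, adjusted p = 0.0314). The value for TCPM was 1.35-fold (1.09 to 1.67; authors' deposited table, 0.28, SE 0.103, adjusted p = 0.190), so ebp did not pass there.

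The lanosterol demethylase gene cyp51 came closest to the threshold without passing it with TCPMOH. It stood at 563, 519 and 415 normalised reads with TCPMOH, TCPM and DMSO, and the authors' deposited tables give log2 fold changes of 0.34 (adjusted p = 0.0550) and 0.23 (adjusted p = 0.390). The other members of the sterol ring group did not pass in either comparison. For the sterol reductase gene tm7sf2 the log2 fold changes in the authors' deposited tables were -0.05 with TCPMOH and -0.04 with TCPM, for the dehydrogenase gene nsdhl 0.09 and 0.10, for the ketoreductase gene hsd17b7 0.07 and -0.15, and for the desaturase gene sc5d 0.01 and 0.00. The group of 8 had a median of 0.21 with TCPMOH and 0.13 with TCPM.

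**Figure D2:**
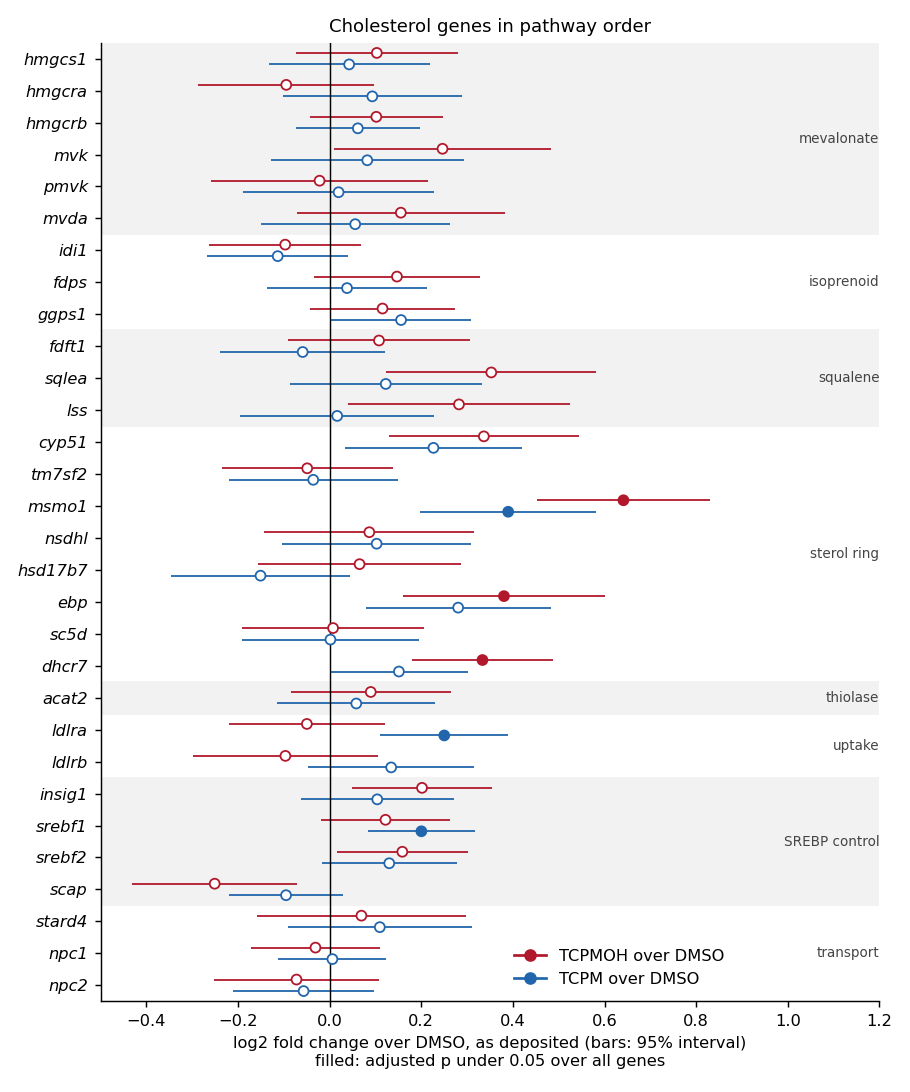
Deposited log2 fold change over DMSO (horizontal axis) of the 30 genes in pathway order (vertical axis), for TCPMOH (red) and TCPM (blue), with bars for 95% intervals and filled points for an adjusted p under 0.05 over all genes. Filled points are msmo1, ebp and dhcr7 with TCPMOH and msmo1, ldlra and srebf1 with TCPM; most other intervals cross 0.

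Upstream of these steps no gene passed with either compound, where 2.55% of all genes passed with TCPMOH and 1.89% with TCPM. At those shares a group of this size could hold none. The 3 genes around squalene are fdft1, which makes it, sqlea, which adds oxygen to it, and lss, which closes the ring. In that order the authors' deposited tables give 0.11, 0.35 and 0.28 with TCPMOH, and -0.06, 0.12 and 0.02 with TCPM. For sqlea the normalised means were 147 with TCPMOH, 118 with TCPM and 102 with DMSO (deposited table, TCPMOH adjusted p = 0.0835 and TCPM adjusted p = 0.872). For lss they were 80.2, 57.2 and 56.0 in the same order of groups (deposited table, adjusted p = 0.353 and 0.997), which did not pass. Before shrinkage the TCPMOH folds of sqlea (1.44) and lss (1.44) were close to that of ebp (1.45), which passed. The SE of lss was near the largest of its table in both fits, as was that of mvk, pmvk and sqlea in the TCPM fit, and there the means recovered by undoing the shrinkage are least certain.

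The mevalonate group comprised hmgcs1, hmgcra, hmgcrb, mvk, pmvk and mvda. Its 6 log2 fold changes ran between -0.09 and 0.25 with TCPMOH and between 0.02 and 0.09 with TCPM, with medians of 0.10 and 0.06. The highest with TCPMOH was the mevalonate kinase gene mvk (deposited table, unadjusted p = 0.0413 and adjusted p = 0.473). The reductase gene hmgcra (Entrez gene 559054), the main control point of the pathway, had means of 588 with TCPMOH, 700 with TCPM and 638 with DMSO. It thus lay on opposite sides of DMSO with the compounds, within its error in both. The authors' deposited tables give log2 fold changes of -0.09 ± 0.0981 (SE) for TCPMOH (adjusted p = 0.923) and 0.09 ± 0.0997 (SE) for TCPM (adjusted p = 0.918). The phosphomevalonate kinase gene pmvk had -0.02 with TCPMOH and 0.02 with TCPM in the authors' deposited tables, and the decarboxylase gene mvda 0.16 and 0.06. The hmgcra paralog hmgcrb had 0.10 and 0.06 there, and the synthase gene hmgcs1 0.10 and 0.04.

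Of the isoprenoid genes, idi1, which isomerises the isoprene unit, lay below DMSO with both compounds, at means of 788 with TCPMOH, 776 with TCPM and 851 with DMSO (authors' deposited tables, adjusted p = 0.886 and 0.782). The prenyl transferase gene fdps had log2 fold changes of 0.15 and 0.04 in the authors' deposited tables. For ggps1, whose product feeds protein prenylation rather than sterols, they were 0.12 and 0.16 (unadjusted p = 0.0461 and adjusted p = 0.561 with TCPM). The cytosolic thiolase gene acat2, which supplies acetoacetyl-CoA, had 0.09 and 0.06 there.

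Uptake of lipoproteins was represented by the LDL receptor genes ldlra and ldlrb. The gene ldlra (Entrez gene 387529) had mean normalised read counts of 668 with TCPMOH, 848 with TCPM and 696 with DMSO. TCPM larvae stood apart, 1.22-fold above DMSO (95% interval 1.09 to 1.36), while TCPMOH larvae were at 0.961 of DMSO (0.837 to 1.103). In the authors' deposited tables the log2 fold changes were -0.05 ± 0.0869 (SE) for TCPMOH (adjusted p = 0.973) and 0.25 ± 0.0715 (SE) for TCPM (adjusted p = 0.0299). The paralog ldlrb had means of 504 with TCPMOH, 621 with TCPM and 549 with DMSO, the same order of groups, and did not pass in either table (adjusted p = 0.931 and 0.780, authors' deposited tables).

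Among the control genes srebf1 (Entrez gene 793274), the SREBP that in mammals mainly drives fatty acid synthesis, had means of 1968 with TCPMOH, 2087 with TCPM and 1794 with DMSO. It was 1.16-fold higher with TCPM (95% interval 1.07 to 1.27) and at 1.098 of DMSO with TCPMOH (0.985 to 1.22). The authors' deposited tables give log2 fold changes of 0.12 (adjusted p = 0.669) for TCPMOH and 0.20 ± 0.0595 (SE) (adjusted p = 0.0428) for TCPM. The call of srebf1 was lost when p-values were adjusted over every gene with a p-value (adjusted p = 0.0617).

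The SREBP of the sterol enzymes, srebf2 (Entrez gene 100037309), had means of 1974 with TCPMOH, 1941 with TCPM and 1747 with DMSO, both compounds lying above DMSO. Its deposited log2 fold changes were 0.16 ± 0.0732 (SE) (adjusted p = 0.411) for TCPMOH and 0.13 ± 0.0749 (SE) (adjusted p = 0.673) for TCPM in the authors' deposited tables. For insig1 (Entrez gene 334189) the means were 613, 573 and 524, and the authors' deposited tables give 0.20 (adjusted p = 0.218) for TCPMOH and 0.10 (adjusted p = 0.853) for TCPM. The escort gene scap was the 1 member that was lower at an unadjusted p under 0.05, with means of 748 with TCPMOH, 857 with TCPM and 922 with DMSO. The deposited log2 fold changes of scap were -0.25 (adjusted p = 0.160) and -0.10 (adjusted p = 0.767) in the authors' deposited tables.

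The transport genes showed no called change, where 2.55% of all genes passed with TCPMOH and 1.89% with TCPM. The sterol carrier gene stard4 had log2 fold changes of 0.07 with TCPMOH and 0.11 with TCPM in the authors' deposited tables, the lysosomal transporter gene npc1 -0.03 and 0.01, and its partner npc2 -0.07 and -0.06. The RefSeq table names that npc2 gene npc2.1, and the deposited tables hold a second, weakly read gene with an NPC2 symbol.

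**Figure D3:**
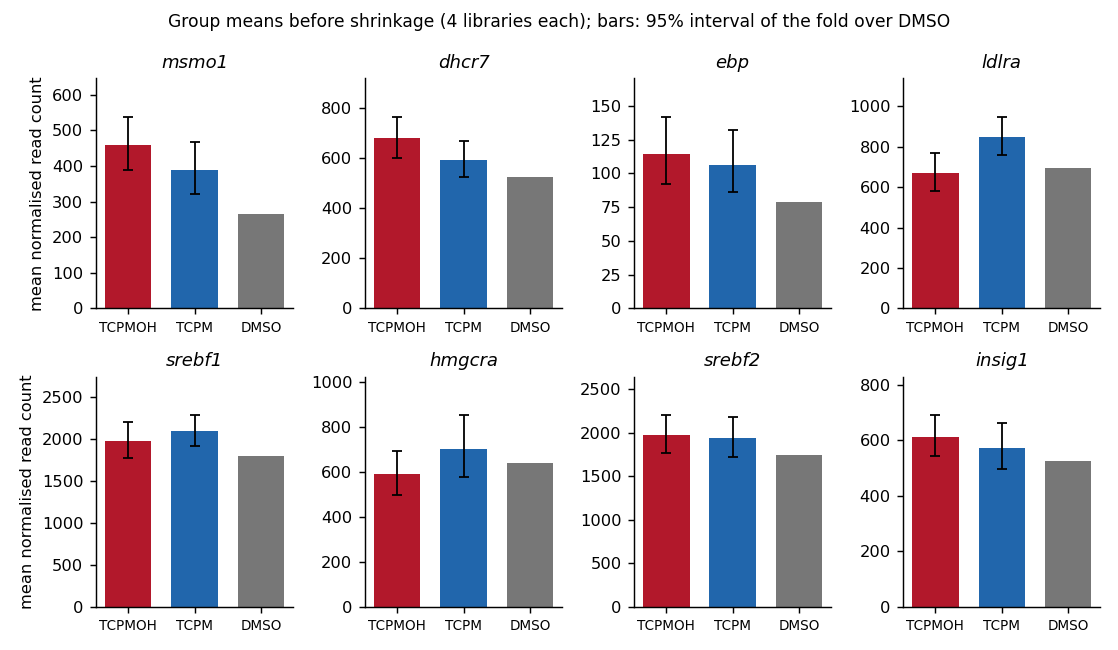
Mean normalised read count (vertical axes, each from 0) of 8 genes in TCPMOH, TCPM and DMSO larvae, 4 libraries per group, with bars for the 95% interval of the fold over DMSO before shrinkage. For msmo1, dhcr7 and ebp both compounds lie above DMSO; for ldlra only the TCPM mean does, at 848 against 696.

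The compounds were then compared with each other at the same 50 nM and the same exposure from 24 to 100 hours after fertilization, as 1 pair, through the difference between their deposited fold changes, tested over 22732 genes. One member differed, ldlra, which was lower with TCPMOH than with TCPM, with a log2 difference of -0.30 (95% interval -0.46 to -0.14, adjusted p = 0.0431). Over all genes 0.211% were lower and 0.242% higher with TCPMOH in this test, 0.453% in all. The ldlra difference lay at the threshold. It had an adjusted p of 0.0506 with fold changes before shrinkage and of 0.0597 when every gene with reads was tested. With no covariance assumed between the comparisons the adjusted p was 1.00, and no member was called. The setting with no covariance disregards the DMSO libraries shared by both comparisons. For ldlrb the difference was -0.23 (-0.42 to -0.04, adjusted p = 0.798).

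No synthesis gene differed between the compounds past the threshold. Of the 20 enzyme genes from hmgcs1 to dhcr7, 15 had the higher fold change with TCPMOH, as had 49.3% of all genes, and the median difference was 0.10 where it was -0.0013 over all genes. At an unadjusted p under 0.05, 5 of these 20 were higher with TCPMOH and 0 lower, where 2.27% of all genes were higher and 2.35% lower. They were sqlea at 0.23 (95% interval 0.01 to 0.45), lss at 0.27 (0.04 to 0.49), msmo1 at 0.25 (0.06 to 0.44), hsd17b7 at 0.22 (0.01 to 0.43) and dhcr7 at 0.18 (0.03 to 0.33), named after their values were seen. Their adjusted p-values ran from 0.588 for msmo1 upward. With fold changes before shrinkage the intervals of sqlea (-0.04 to 0.67) and msmo1 (-0.01 to 0.49) included 0. Those of lss (0.05 to 0.92), hsd17b7 (0.01 to 0.61) and dhcr7 (0.02 to 0.37) did not. For srebf2 the difference was 0.03 (-0.12 to 0.17) and for srebf1 -0.08 (-0.21 to 0.05). On the deposited, shrunken scale the half-width of the unadjusted intervals ranged over the members between 0.13 and 0.23 in log2. Shrunken differences smaller than their half-width were not detectable at this precision. Larger ones could also miss the adjusted threshold, as lss did at 0.27. Before shrinkage the intervals were wider, as for lss (0.05 to 0.92) and mvk (-0.13 to 0.64). The half-widths are therefore no detection limit for differences between group means.

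**Figure D4:**
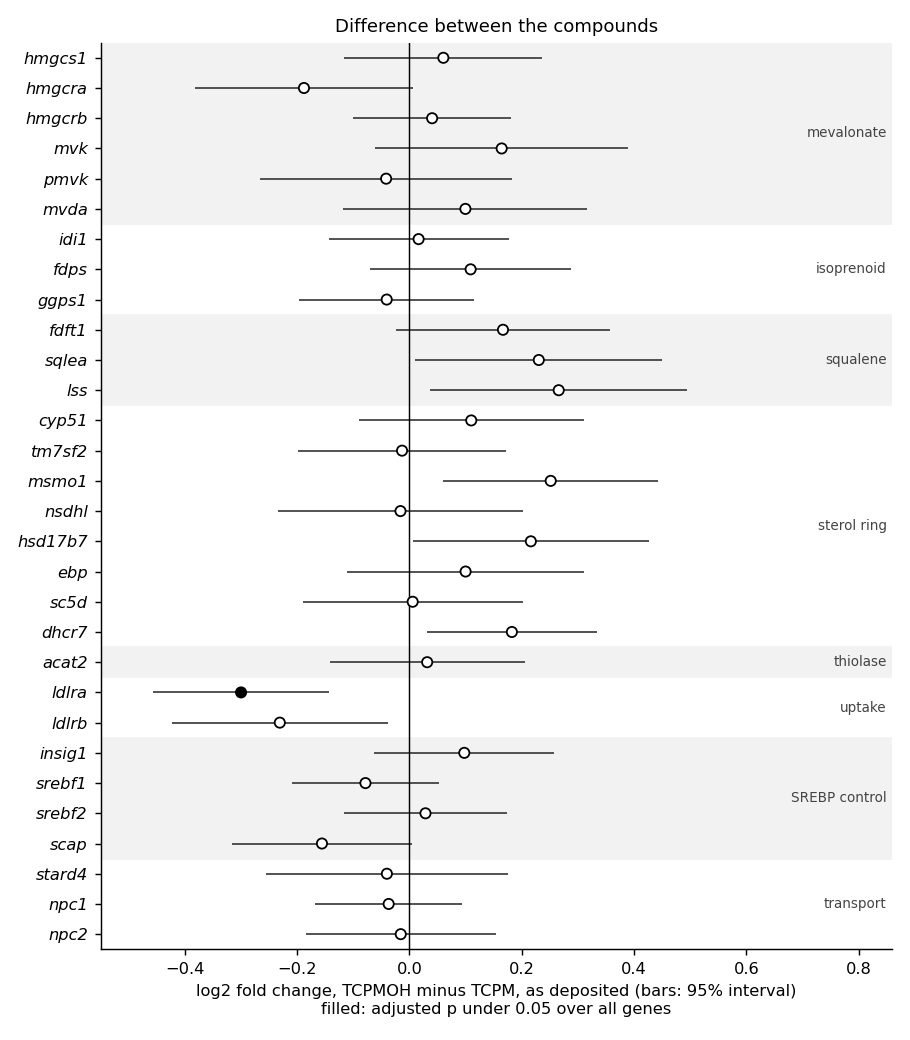
Difference of the deposited log2 fold changes, TCPMOH minus TCPM (horizontal axis), for the 30 genes in pathway order (vertical axis), with bars for 95% intervals. The filled point is ldlra at -0.30, the one with an adjusted p under 0.05 over all genes. The intervals of sqlea, lss, msmo1, hsd17b7 and dhcr7 lie above 0, and these genes did not pass. Before shrinkage the intervals of sqlea and msmo1 include 0.

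Around the pathway, 80 further genes of sterol and lipid metabolism were listed in 5 groups, of which 74 matched a gene and 71 were tested in both tables. With TCPMOH 5 of 71 rose and 0 fell, where 1.54% of all genes rose, and with TCPM 4 rose and 0 fell, where 1.27% of all genes rose. The median log2 fold change of the 71 was 0.06 with TCPMOH, beside -0.0024 over all genes, and 0.03 with TCPM, beside 0.00028 over all genes. The comparisons share their DMSO libraries, so a rise with both compounds, here as for msmo1, fabp2 and apoea, is not 2 independent results. The HDL receptor gene scarb1 had means of 847 with TCPMOH, 750 with TCPM and 594 with DMSO, and rose with both (authors' deposited tables, 0.43, adjusted p = 0.000173, and 0.28, adjusted p = 0.0478). The lipid droplet lipase gene pnpla3, an SREBP1 target in mammals, had means of 1187, 1074 and 817 in the same order and also rose with both (authors' deposited tables, 0.47, adjusted p = 5.21e-06, and 0.35, adjusted p = 0.000197). It was the 1 gene to pass among the 10 tested of SREBP1-driven lipogenesis, of which 5 lay above DMSO with each compound, at group medians of -0.0011 with TCPMOH and -0.03 with TCPM. Those 10 lack fasn, the fatty acid synthase gene, listed at 0, and acly, which matched no gene. In the same group the authors' deposited tables give -0.22 for gpam (adjusted p = 0.221) and -0.16 for acss2 (adjusted p = 0.329) with TCPMOH. With TCPM they give -0.22 for me1 (adjusted p = 0.362). Above DMSO they give 0.31 for scd with TCPMOH (adjusted p = 0.210). For fads2 they give 0.24 with TCPMOH (adjusted p = 0.502) and 0.27 with TCPM (adjusted p = 0.251). None of these passed. At an unadjusted p under 0.05, 3 of the 10 were higher and 2 lower with TCPMOH, where 5.27% and 4.41% of all genes were. With TCPM 2 were higher and 1 lower, where 5.0% and 3.62% were.

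Of 20 genes of sterol efflux, storage and bile acids, 3 rose with TCPMOH, where 1.54% of all genes rose. With TCPM 1 rose, where 1.27% of all genes did, and a count of 1 is too small to set against that share. The apolipoprotein gene apoea rose with both, at 0.32 in each of the authors' deposited tables (adjusted p = 0.0262 with TCPMOH and 0.00513 with TCPM). The sterol exporter gene abcg8 was at 0.37 with TCPMOH (adjusted p = 0.0188) and 0.22 with TCPM (adjusted p = 0.405), and cyp27a7, a cytochrome P450 gene of the family of sterol hydroxylases, at 0.29 (adjusted p = 0.0442) and 0.05 (adjusted p = 0.956), in the authors' deposited tables. Neither passed the threshold for a difference between the compounds in the test over all genes. For cyp27a7 the difference was 0.24 (interval 0.08 to 0.40, unadjusted p = 0.00291 and adjusted p = 0.320 in that test). Before shrinkage it was 0.28 (0.10 to 0.46), so the unadjusted interval of cyp27a7 lay above 0 on both scales. For abcg8 the difference was 0.15 (-0.04 to 0.35). The bile acid enzyme gene cyp7a1 had 0.06 and 0.22 and did not pass in the authors' deposited tables (adjusted p = 0.973 and 0.426). Among 13 other synthesis genes hsd17b12a, which in mammals acts in fatty acid elongation, was at 0.21 with TCPMOH (adjusted p = 0.110) and 0.28 with TCPM (adjusted p = 0.0283) in the authors' deposited tables. None of 12 further SREBP control genes passed in the DESeq2 test (at an unadjusted p under 0.05, 0 with TCPMOH and 1, lower, with TCPM). Of all genes 2.55% passed with TCPMOH and 1.89% with TCPM, so 12 genes could hold none at those shares.

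**Figure D5:**
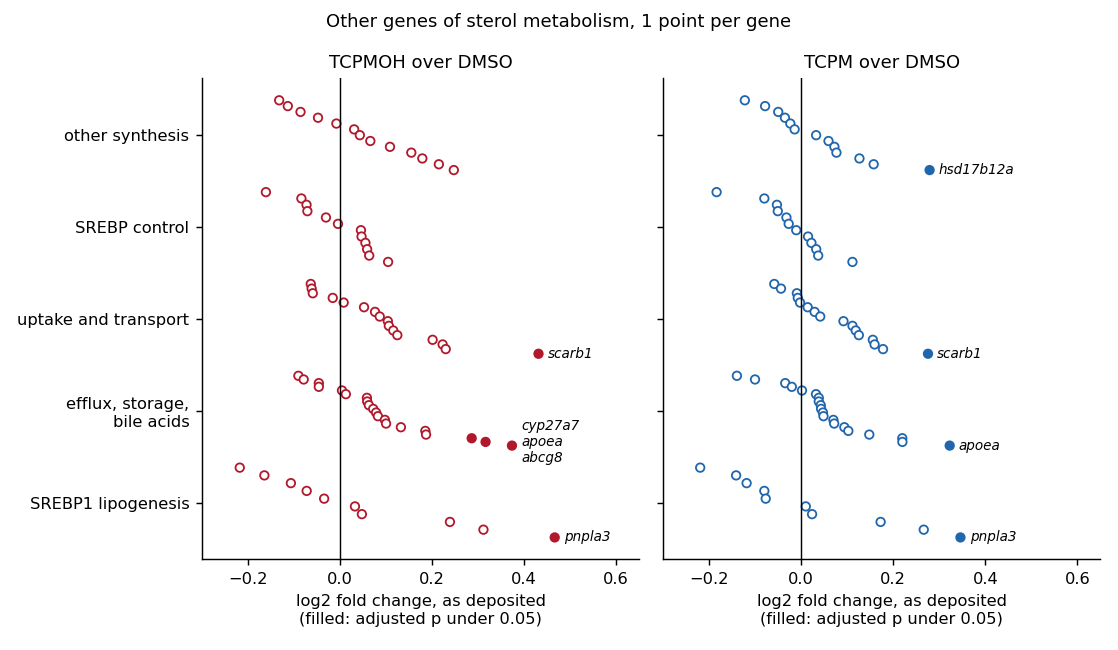
Deposited log2 fold changes (horizontal axis) of 71 other genes of sterol and lipid metabolism in 5 groups (vertical axis), TCPMOH over DMSO on the left and TCPM over DMSO on the right, 1 point per gene, filled where the adjusted p over all genes was under 0.05. scarb1, apoea and pnpla3 are filled on both sides, cyp27a7 and abcg8 with TCPMOH and hsd17b12a with TCPM.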

How the data were processed

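Per the labels' protocols, RNA of pooled whole larvae was made into stranded mRNA libraries and read from both ends at 100 nt, with 25 M reads stated. FastQC, cutadapt, STAR, featureCounts and DESeq2 are named in the submitters' processing notes, without versions. The genome build was not given in the sources used here, and no coordinates are printed. Each deposited table has, per gene, a mean signal (counts divided by size factors and averaged over libraries), the authors' log2 fold change and SE, the Wald score, and p-values before and after Benjamini-Hochberg adjustment over genes past the authors' filter. Depth was 18.1 to 25.9 M assigned reads per library, estimated from genes with a single read.

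Those genes gave 8 libraries per fit, 4 of them common to both tables and so DMSO. Where only these 4 had reads, the deposited fold change was positive, which fixed the direction of the tables as DMSO over compound. The labels list 5 samples per group, and which one each fit left out is not given. Folds, group means and their intervals were computed after undoing a normal prior whose SD, 0.248 for TCPMOH and 0.216 for TCPM, was read as 2 times the largest SE. The DMSO means recovered from both tables, put on one scale, then differed by at most 0.179% over the members. The coefficient of variation between pools implied by the SEs was 6.92% to 18.5% in the TCPMOH fit and 5.89% to 16.3% in the TCPM fit. Nothing says how pools map to the 3 experimental replicates, so no batch could be fitted and p-values measure the spread between pools.

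The compounds were compared by subtracting the deposited TCPM value from the TCPMOH value, with a two-sided normal test. The covariance from shared DMSO libraries was set to 0.5 times the product of the SEs. These p-values were adjusted over 22732 genes with a mean of at least 10 in both tables. Both steps were run on simulated counts in which the comparisons had the same prior SD, unlike the fits here. Changes as small as those of the members were not simulated. Python 3.11.15, pandas 2.3.3 and scipy 1.17.1 were used. Full values were given for members with an adjusted p under 0.05 and for hmgcra, ldlra, srebf2 and insig1, and the rest were described by step. The members and lists were chosen with earlier results of these data known. Symbols were matched exactly, except ERG28 and NPC1L1, matched without regard to case.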

Additional observations from a re-analysis of the deposited data

Results flagged for a closer look

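The receptor gene ldlra was singled out because its response passed the threshold for a difference between the compounds. Its log2 fold change over DMSO was -0.05 for TCPMOH and 0.25 for TCPM (authors' deposited tables), a difference of -0.30 (adjusted p = 0.0431). That call lay at the threshold. It was lost with no covariance, with the prior undone, with every gene with reads tested, and at an adjusted p under 0.01. Of these settings, the one with no covariance disregards the shared DMSO libraries. With no value per library, single samples that stand apart could not be looked for.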

How the results depend on the processing

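The count of members called with TCPMOH was 3 and was 2 to 4 under the alternatives run. With TCPM it was 3, 2 when p-values were adjusted over every gene with a p-value, and 1 at an adjusted p under 0.01. The count differing between the compounds was 1, and 0 with no covariance, with the prior undone, with every gene with reads tested, and at an adjusted p under 0.01. Setting the covariance to 0 enlarges the SE of every difference by construction, and a threshold of 0.01 is stricter. The cause of the other changes was not tested. No direction turned among the genes tested in these settings. Undoing the prior left the tests against DMSO as they were, by construction. Leaving out libraries, edgeR and other normalizations were not run, since the tables hold no column per library. No paired analysis was possible because the groups share no replicate number.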

Other observations

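The deposited tables list fasn, the fatty acid synthase gene, and erlin2 at 0 in both. Whether reads of these genes went unassigned was not tested, so the 0 is not read as absence of expression.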
